A study of Mus musculus with 14 samples.

Results

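AP-1 is a transcription factor made of paired Fos, Jun, Atf and Maf family proteins, and with Egr1 several of its genes belong to the immediate early genes, which cells switch on without first making new protein. The 10 genes described here are Maff, Fosl1, Fosl2, Fos, Fosb, Jun, Junb, Jund, Atf3 and Egr1, of 27376 gene names on the array. They were found by the gene name that the scanner files give each probe, and every probe of them is shown, 12 of 41174. The set was chosen by levels on these arrays: Maff, Fosl1 and Atf3 were selected on being higher in Rheb1-/- than in wild-type myeloid cells and not so in the other cells. Therefore genotype differences of these 10 genes are given as descriptions without a test.

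Gene expression was measured on 14 single-colour Agilent arrays of mouse blood-forming cells. The Rheb1-/- samples came from mice carrying Vav1-cre and floxed Rheb1 alleles, in which Vav1-cre recombines floxed alleles across the blood system, so that the loss is not limited to myeloid cells. The wild-type samples came from mice that the labels call wild type, and their floxed or unfloxed state at Rheb1, the age and the sex of the mice are not stated in the labels. There were 3 wild-type and 3 Rheb1-/- arrays of myeloid progenitors, titled GMP, 3 and 3 arrays of myeloid cells, and 1 and 1 of hematopoietic stem cells. No treatment is named other than the genotype. The series addresses Rheb1 and mTORC1, the growth-regulating kinase complex that the Rheb1 protein switches on, in macrophage differentiation and phagocytosis.

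The bZIP proteins of the Fos, Jun, Atf and Maf families bind DNA in pairs, joined by a leucine zipper. Fos proteins need a partner such as a Jun protein, whereas Jun proteins can also pair with each other, and small Maf proteins such as Maff lack an activation domain of their own and act through their partners. Many of these genes are induced within minutes by growth factors, cytokines, bacterial products and cell handling, and in myeloid cells the family takes part in differentiation and in the response to inflammatory signals.

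Promoter sequences are printed for Maff and Atf3, the members with a RefSeq promoter whose levels moved most between the genotypes in myeloid cells, and for Fosl2 and Fosb, which share a motif with Maff. RefSeq (GRCm38.p6) promoters were at hand for 8 of the 10 genes, Fosl1 and Egr1 being the others. Each window holds the 250 bases before the annotated start, 5′ to 3′ on the gene's strand, and Maff is given at the second of its 3 annotated starts. Capitals mark a cyclic AMP response element (TGACGTCA) or an EGR1 site (GCGNGGGCG). The windows are chr15:79347270-79347519 on the plus strand, chr5:32136222-32136471 on the plus strand, chr7:19310046-19310295 on the minus strand and chr1:191183334-191183583 on the minus strand.
Maff: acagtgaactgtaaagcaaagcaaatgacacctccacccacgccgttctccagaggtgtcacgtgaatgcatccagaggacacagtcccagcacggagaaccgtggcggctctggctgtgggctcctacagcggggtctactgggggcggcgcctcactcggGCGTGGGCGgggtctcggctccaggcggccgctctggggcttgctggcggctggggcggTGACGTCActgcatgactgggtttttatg
Fosl2: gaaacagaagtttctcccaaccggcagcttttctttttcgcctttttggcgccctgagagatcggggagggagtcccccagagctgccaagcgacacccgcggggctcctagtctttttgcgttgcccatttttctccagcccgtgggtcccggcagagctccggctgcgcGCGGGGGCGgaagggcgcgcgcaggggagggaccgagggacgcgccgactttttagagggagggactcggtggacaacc
Fosb: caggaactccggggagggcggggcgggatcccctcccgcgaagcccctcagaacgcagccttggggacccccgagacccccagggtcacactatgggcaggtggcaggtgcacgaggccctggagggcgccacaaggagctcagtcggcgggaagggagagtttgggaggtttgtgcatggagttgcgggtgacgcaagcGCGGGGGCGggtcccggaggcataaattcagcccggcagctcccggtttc
Atf3: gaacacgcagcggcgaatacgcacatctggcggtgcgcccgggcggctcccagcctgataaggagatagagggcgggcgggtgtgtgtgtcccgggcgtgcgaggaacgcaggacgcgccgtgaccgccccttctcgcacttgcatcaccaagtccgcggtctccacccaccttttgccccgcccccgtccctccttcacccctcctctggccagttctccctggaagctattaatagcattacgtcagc

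In the Maff window the response element lay 29 to 22 bases before the start and the EGR1 letters 88 to 80 bases before it. The EGR1 letters were also found 79 to 71 bases before the Fosl2 start and 50 to 42 bases before the Fosb start. Both strands of the 8 genes' windows were searched for 5 motifs: these 2, the AP-1 site (TGACTCA), the CArG box and the TATA box (TATAAA). The 8 genes have 10 windows, Maff having 3. The EGR1 letters occurred in 3 of the 10 and in 4.7% of 32851 RefSeq promoter windows of the same length. The response element occurred in 1 of the 10, the printed Maff window, against 1.55% of all windows, and the TATA box in 1 of the 10, that of Fos, 33 to 28 bases before the start, against 12.4%. None of the 10 windows held an AP-1 site (4.46% of all windows) or a CArG box (1.47%), and the Atf3 window held none of the 5. These are matches of letters in these windows and say nothing about binding.

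Levels are log2 processed signals minus the array's own 75th percentile, so 0 marks that percentile and negative levels lie under it, and a level of 1 probe is never set against that of another. Tests used the 27144 probes that Agilent's software called well above background throughout 1 or more of the 4 replicated groups, all 12 probes of the members among them. The members were well above background on all 14 arrays, except 1 of the Fosl2 probes on wild-type progenitor array 2, and no spot was saturated. Between 58.5% and 67.6% of the spots of an array were well above background, and replicates correlated across probes at 0.987 to 0.991. The small number of arrays limits the precision. No label links an array to a mouse, so the p-values reflect the spread between arrays, which may be technical.

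Some features of the arrays bear on the comparisons. The 3 wild-type myeloid cell arrays lay on slide 1 and the 3 Rheb1-/- ones on slide 4, so slide and genotype cannot be told apart in myeloid cells, whereas slide 3 held 2 progenitor arrays of each genotype. Xist, the RNA of the inactive X chromosome, had levels of -0.19, 4.25 and 0.10 on the wild-type myeloid cell arrays and of 5.14 to 5.2 on the Rheb1-/- ones. Ddx3y, on the Y chromosome, was above background on all 3 wild-type arrays and on none of the 3 Rheb1-/- arrays of myeloid cells, with levels of 0.51, -3.34 and 1.19 against -7.65 to -7.23. The sex makeup of the samples therefore moved with genotype in myeloid cells, wild-type array 2 being the nearest to the Rheb1-/- arrays. The part of sex makeup in the results was not tested, and values against that array are given below as a description. The 13 neutrophil markers and 9 progenitor markers found were above background in every group, so the groups are compared by the levels of these markers. The neutrophil markers had a mean level of 7.22 to 7.74 in myeloid cells and of 3.40 to 4.56 on the other arrays, and the progenitor markers 6.37 to 6.59 in progenitors and 3.98 to 5.22 elsewhere. The 10 stem cell markers averaged 0.55 and 0.85 on the stem cell arrays and -3.69 to -1.59 on the others.

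Rheb itself, the targeted gene, had levels of 3.95, 4.04 and 3.79 on the wild-type progenitor arrays and 3.26, 2.66 and 2.60 on the Rheb1-/- ones. In myeloid cells the levels were 3.55, 2.94 and 2.80 against 2.16, 2.10 and 2.36. The genotypes did not overlap in either cell type. The difference was -1.08 ± 0.22 (log2 ± SE) in progenitors (limma, adjusted p = 0.104) and -0.89 ± 0.22 in myeloid cells (limma, adjusted p = 0.0119), and the stem cell levels were 3.46 and 2.27. The labels do not say which part of Rheb1 is deleted, so the probe may lie outside it.

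Maff encodes a small Maf protein, which pairs with Nfe2-type and Bach proteins on Maf recognition elements. Its probe lies at chr15:79189442-79189501 (mm9, plus strand). On the wild-type myeloid cell arrays the Maff level was -3.99, -4.37 and -3.62, and on the Rheb1-/- myeloid cell arrays it was -0.67, -0.46 and -1.01. The 3 wild-type myeloid arrays stood apart from every other array for Maff. The genotype difference in myeloid cells was 3.28 on the log2 scale, or 9.71-fold higher in Rheb1-/- cells, with a standard error from the group SDs of 0.27 (n = 3 and 3), and it was 2.04 with normexp background correction. Progenitors had Maff levels of -0.26, -0.72 and -0.77 in the wild type and -0.52, -1.93 and -0.45 in Rheb1-/-, which overlapped, and the stem cell arrays had 0.85 and 0.42. Ordered by mean, stem cells came first, followed by wild-type progenitors, Rheb1-/- myeloid cells and Rheb1-/- progenitors, whose ranges overlapped, and wild-type myeloid cells came last at -3.99 ± 0.38 (SD, n = 3). The Rheb1-/- myeloid cells thus had a Maff level within the range of the progenitors.

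Fosl1 encodes Fra-1, a Fos family protein without the transactivation domain of Fos. Its probe lies at chr19:5455496-5455555 (mm9, plus strand). The Fosl1 level on the wild-type myeloid cell arrays was -4.28, -4.42 and -4.14, against -1.12, -1.40 and -1.07 in Rheb1-/- myeloid cells. Progenitors had levels of -4.36, -4.57 and -4.33 in the wild type and of -4.48, -5.73 and -3.93 in Rheb1-/-, and stem cells had -3.34 and -3.61. Here the 3 Rheb1-/- myeloid arrays were the ones that stood apart, above all the other 11. Their difference from wild-type myeloid cells was 3.08 on the log2 scale, 8.45-fold, with a standard error of 0.13 (n = 3 and 3), and it was 1.73 with normexp background correction. The other group means lay between -4.71 and -3.34, and those of wild-type myeloid cells and of both progenitor groups overlapped in range.

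Atf3 encodes a bZIP protein of the Atf/Creb family that is induced by cell stress and by Toll-like receptor signals and restrains inflammatory genes in macrophages. Its probe lies at chr1:192994547-192994606 (mm9, minus strand). The Atf3 level was 1.94, 1.54 and 1.62 on the wild-type myeloid cell arrays and 3.68, 3.59 and 3.72 on the Rheb1-/- ones. The latter were the highest of the 14 arrays and lay within 0.13 of each other. The difference was 1.96 on the log2 scale, 3.89-fold, with a standard error of 0.13 (n = 3 and 3). In progenitors the levels were 1.48, 1.45 and 0.84 in the wild type and 1.13, 0.10 and 0.15 in Rheb1-/-, an overlap with the lower mean in Rheb1-/- cells. In stem cells the wild-type array had 2.90 and the Rheb1-/- array 0.29. By mean the order was Rheb1-/- myeloid, wild-type stem, wild-type myeloid, wild-type progenitor, Rheb1-/- progenitor and Rheb1-/- stem cells, and among the replicated groups wild-type myeloid cells did not overlap with wild-type progenitors while the 2 progenitor groups overlapped.

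**Figure D1:**
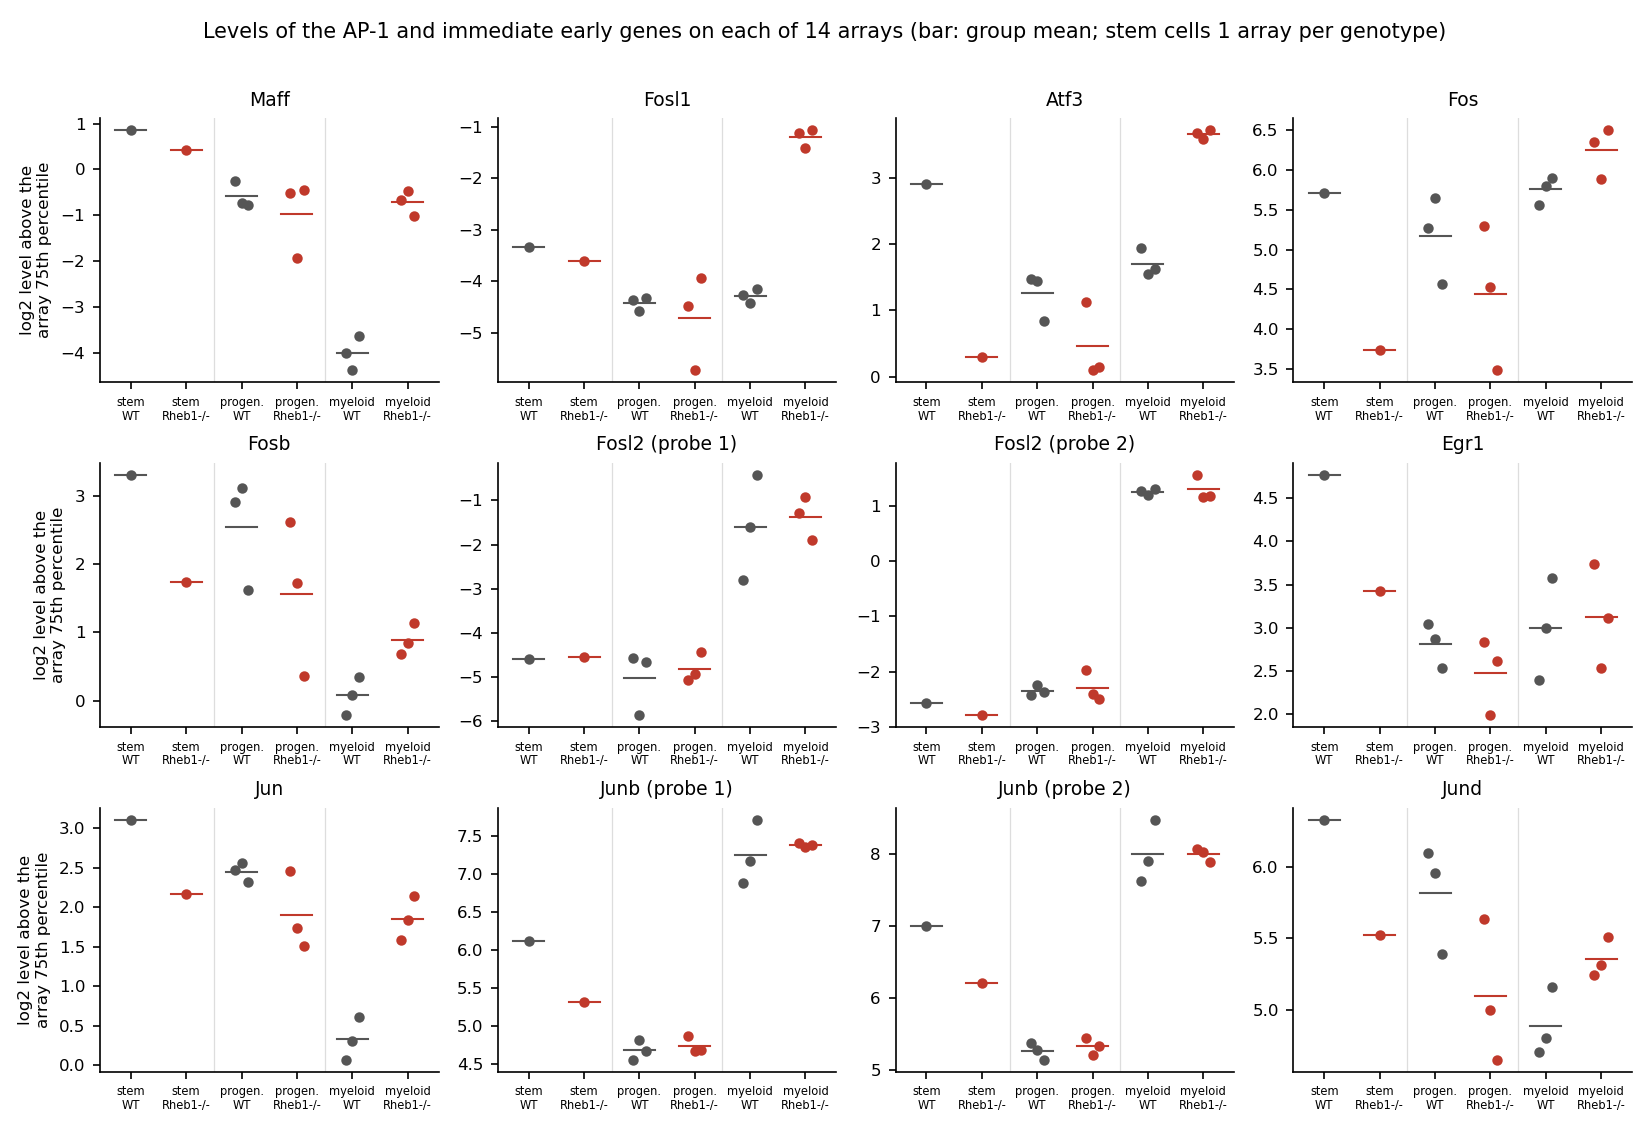
Level of each of the 12 probes (log2 above the array's 75th percentile, vertical axis, scaled separately per panel) on the 14 arrays in 6 groups; each point is an array, the bar is the group mean, and grey is wild type (WT) and red Rheb1-/-. Maff is lowest on the 3 wild-type myeloid arrays (-4.37 to -3.62), whereas Fosl1 (-1.40 to -1.07) and Atf3 (3.59 to 3.72) are highest on the 3 Rheb1-/- myeloid arrays.

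Fos is the founding member of its family and the partner of Jun in classical AP-1. Its probe, at chr12:86817900-86817959 (mm9, plus strand), was spotted several times per array, and the 8 to 10 usable spots of an array had an SD of 0.03 to 0.08. The Fos level in myeloid cells was 5.56, 5.80 and 5.90 in the wild type and 6.35, 5.88 and 6.50 in Rheb1-/-, a difference of 0.49 with a standard error of 0.21, and the genotypes overlapped. Progenitors ran lower in Rheb1-/- cells, with 5.28, 5.65 and 4.57 in the wild type and 5.30, 4.54 and 3.49 in Rheb1-/-, again with overlap. The stem cell levels were 5.71 and 3.74. The spread of the progenitor arrays was far above that between spots of an array.

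Fosb, whose protein also pairs with Jun proteins, was probed at chr7:19888477-19888536 (mm9, minus strand). Its level in myeloid cells was -0.21, 0.08 and 0.35 in the wild type and 0.68, 0.84 and 1.14 in Rheb1-/-, without overlap and with a difference of 0.81 (standard error 0.21). In progenitors it was 2.92, 3.12 and 1.62 in the wild type and 2.62, 1.72 and 0.36 in Rheb1-/-, with overlap, and in stem cells 3.31 and 1.74. Fosb was thus lower in the myeloid cells of both genotypes than on every wild-type progenitor array.

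Jun encodes c-Jun, the main partner of Fos and a target of the JNK kinases. On its probe at chr4:94715864-94715923 (mm9, minus strand) the level in myeloid cells was 0.07, 0.30 and 0.60 in the wild type and 1.58, 1.83 and 2.13 in Rheb1-/-. Those groups did not overlap and differed by 1.52 on the log2 scale, 2.88-fold, with a standard error of 0.22. In progenitors the levels were 2.47, 2.56 and 2.32 in the wild type and 2.46, 1.74 and 1.51 in Rheb1-/-, and in stem cells 3.11 and 2.16. As with Maff, the wild-type myeloid arrays had the lowest Jun levels of all 14, and the Rheb1-/- myeloid arrays fell within the range of the Rheb1-/- progenitors. The 9 to 10 usable Jun spots of an array had an SD of 0.04 to 0.12.

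Jund, the Jun family gene that is expressed in most resting cells, was probed at chr8:73224436-73224495 (mm9, plus strand). Its myeloid cell levels were 4.70, 4.80 and 5.16 in the wild type and 5.24, 5.31 and 5.51 in Rheb1-/-, a difference of 0.47 (standard error 0.16) without overlap. In progenitors they were 6.09, 5.96 and 5.39 in the wild type and 5.64, 5.0 and 4.65 in Rheb1-/-, and in stem cells 6.33 and 5.53. The genotypes overlapped in progenitors, and the lowest myeloid level in Rheb1-/- cells was close to the highest in the wild type.

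Junb encodes a Jun protein that holds back myeloid proliferation in mice. It had 2 probes at chr8:87500843-87500902 and chr8:87500881-87500940 (mm9, minus strand), which share 22 of their 60 bases, printed here because the probes are for that reason not independent.
Junb shared stretch: ttcgtgtctaaagtctatttta

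The first Junb probe had levels of 6.87, 7.17 and 7.71 in wild-type and 7.41, 7.35 and 7.38 in Rheb1-/- myeloid cells, and the second had 7.63, 7.90 and 8.48 against 8.08, 8.03 and 7.90. Progenitors lay lower on both, between 4.55 and 4.86 on the first and between 5.15 and 5.44 on the second over the 6 arrays. The genotypes overlapped in both cell types, and the genotype differences were 0.13 and -0.00 in myeloid cells and 0.06 and 0.06 in progenitors. Stem cells had 6.11 and 5.31 on the first probe and 7.0 and 6.21 on the second, between the progenitors and the myeloid cells.

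Fosl2 encodes Fra-2, another Fos family protein without the activation domain of Fos. Its first probe (chr5:32455088-32455147, mm9, plus strand) had myeloid cell levels of -2.80, -1.60 and -0.42 in the wild type and -1.29, -0.93 and -1.89 in Rheb1-/-. The second (chr5:32459624-32459683) had 1.27, 1.2 and 1.30 against 1.56, 1.16 and 1.18. The spread between arrays was much larger on the first probe, but on neither did the genotypes separate, and the differences were 0.24 and 0.04. All 6 progenitor arrays and both stem cell arrays lay lower, between -5.87 and -4.45 on the first probe and between -2.79 and -1.97 on the second.

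Egr1 encodes a zinc finger transcription factor that is induced with Fos and favours monocyte and macrophage differentiation. It was probed at chr18:35024395-35024454 (mm9, plus strand). Its level in myeloid cells was 2.40, 3.00 and 3.58 in the wild type and 3.74, 2.54 and 3.12 in Rheb1-/-, which overlapped almost wholly. Progenitors had 3.04, 2.87 and 2.53 against 2.83, 1.99 and 2.61, also with overlap, and the stem cell arrays had 4.77 and 3.43. The genotype differences were 0.14 in myeloid cells and -0.34 in progenitors, both within the spread between arrays.

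Set side by side in myeloid cells, 6 of the 10 genes (Maff, Fosl1, Atf3, Jun, Fosb and Jund) had genotypes that did not overlap, all higher in Rheb1-/- cells. Of all 27144 probes, 47.3% did not overlap between these groups and 20.3% did so with the higher level in Rheb1-/-, and nothing is read from the members' count because this contrast chose them. Over all probes the difference had a median of -0.07 and 5th and 95th percentiles of -1.18 and 0.79. Maff, Fosl1, Atf3, Jun and Fosb lay above that 95th percentile, and Fos, Fosl2, Junb, Jund and Egr1 did not. Wild-type myeloid array 2 had the Xist level nearest to those of the Rheb1-/- arrays. Against it alone the differences were 3.66 for Maff, 3.22 for Fosl1 and 2.12 for Atf3. It was the lowest wild-type myeloid array for Maff, Fosl1 and Atf3, so for them the difference against it exceeds that of the means by construction. For Jun the value was 1.54, for Jund 0.55 and for Fosb 0.81. That array lay on another slide than the Rheb1-/- ones and had Ddx3y above background, and the part of sex makeup was not tested.

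The 3 genes that led in myeloid cells did not do so in progenitors. The genotype difference there was -0.38 for Maff, -0.29 for Fosl1 and -0.80 for Atf3, with standard errors of 0.51, 0.54 and 0.39. Fos (-0.72), Fosb (-0.98), Jun (-0.55) and Jund (-0.72) were likewise lower by mean in Rheb1-/- progenitors. With 1 array left out these values ranged from -1.15 to -0.25 for Fos, -1.51 to -0.38 for Fosb, -0.82 to -0.35 for Jun and -0.99 to -0.50 for Jund, and Maff (-0.64 to 0.10) and Fosl1 (-0.68 to 0.22) took either sign. All 8 megakaryocyte and platelet markers were at an unadjusted p under 0.05 in this contrast (limma, median -1.5, none passing after adjustment). So were 8 of 13 monocyte and macrophage markers (median -0.45) and 3 of 5 stroma and endothelium markers (median -0.98). In each of these 2 lists 1 marker passed after adjustment, as lower, and no marker of the other lists passed. An unadjusted p under 0.05 (limma) was also found for 4 of 9 T and NK cell (median 0.19) and 4 of 9 stem cell markers (-0.36). It was found for 3 of 9 erythroid (-0.52) and 3 of 9 eosinophil, basophil and mast cell markers (-0.77). The same held for 2 of 13 neutrophil and 2 of 8 dendritic cell markers, and for 3060 of all 27144 probes. The part of these markers was not tested. All 12 probes had overlapping genotypes in progenitors, where 19.2% of all probes did not overlap (11.1% higher and 8.06% lower), and this contrast also entered the choice of members. Among the 4 progenitor arrays of slide 3 the differences were -0.48 for Maff, -0.65 for Fosl1, -0.53 for Atf3, -0.19 for Fos, -0.20 for Fosb, -0.34 for Jun and -0.36 for Jund. Within the slide the differences of Atf3, Fos, Fosb, Jun and Jund were thus smaller than over all 6 arrays, and those of Maff and Fosl1 were not.

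**Figure D2:**
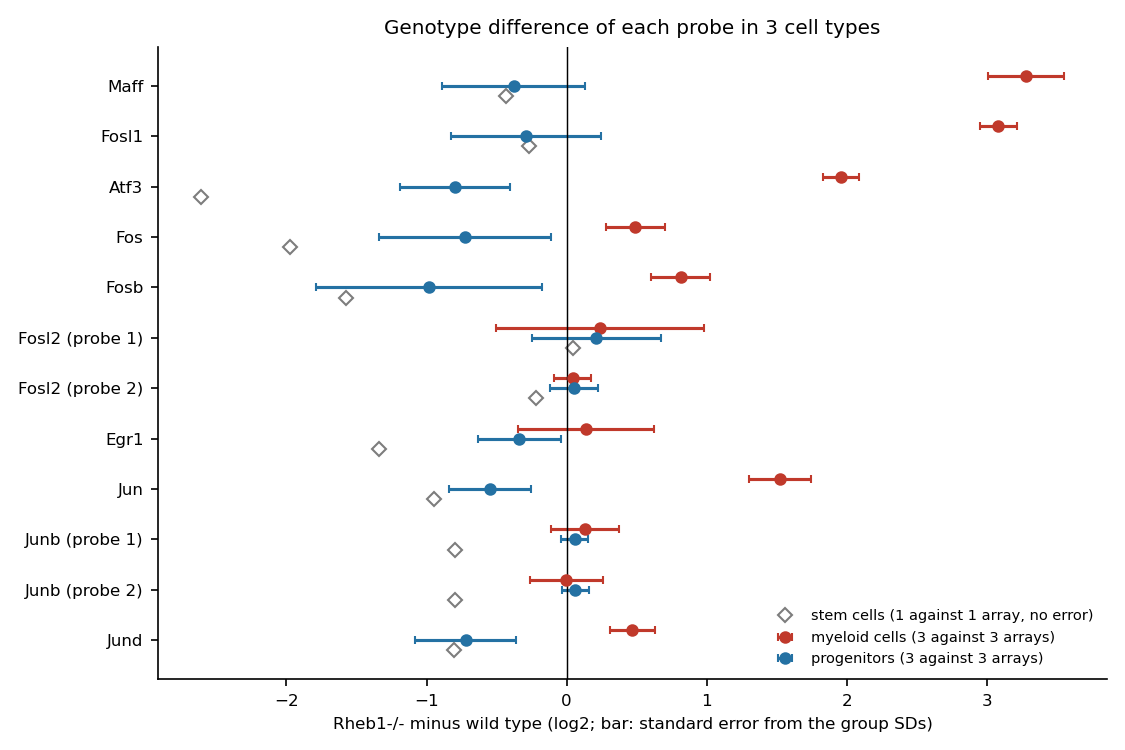
Rheb1-/- minus wild type (log2, horizontal axis) for each of the 12 probes, with red for myeloid cells, blue for progenitors (3 against 3 arrays each, bars are standard errors from the group SDs) and open diamonds for stem cells (1 against 1 array, no error). Maff (3.28), Fosl1 (3.08), Atf3 (1.96) and Jun (1.52) lie to the right in myeloid cells, whereas Atf3 lies to the left in progenitors (-0.80) and stem cells (-2.61).

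In 3 of the 4 replicated groups many members were high or low on the same array. Wild-type progenitor array 3 was the lowest of its group on 8 of the 12 probes, those of Atf3, Egr1, Fos, Fosb, Jun, Jund, Maff and 1 Junb probe. In Rheb1-/- progenitors array 1 was the highest on 9 of the 12. Wild-type myeloid array 3 was the highest of its group on 11 of the 12 probes, Atf3 being the exception, and array 1 the lowest on 8. In Rheb1-/- myeloid cells there was no such order: the arrays were the lowest on 3, 6 and 3 probes and the highest on 4, 2 and 6. A shared rise or fall of the members on an array is therefore not several independent observations of a genotype difference.

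In stem cells, with 1 array per genotype and no test, 11 of the 12 probes were lower in Rheb1-/-. The share of all probes that were lower on this pair was not counted. Nothing is read from the members' count, as Junb and Fosl2 have more than 1 probe and members can rise or fall together on an array. Atf3 differed by -2.61, Fos by -1.98, Fosb by -1.57, Egr1 by -1.34, Jun by -0.94, Jund by -0.80 and Junb by -0.80 and -0.79. Maff (-0.43), Fosl1 (-0.27) and Fosl2 (0.04 and -0.22) differed less. Over the 25971 probes above background on both arrays the median was 0.12 and the 5th percentile -1.11, so Atf3, Fos, Fosb and Egr1 lay below that percentile. The same pair of arrays differed in markers of other cells: the mean level of 13 monocyte and macrophage markers was 3.14 in the wild type and 0.02 in Rheb1-/-, that of 8 B cell markers 1.00 and -0.73, and that of 9 erythroid markers 0.13 and -1.43. Their part in the differences was not tested, and the arrays lay on different slides and differed in Xist and Y-linked levels.

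Wild-type myeloid cells were then compared with wild-type progenitors for the 7 genes whose choice named no pattern. All members were still chosen with earlier results of these data known, and the wild-type myeloid arrays also enter the genotype contrast. The p-values carry that limit. Fosl2 and Junb were higher in myeloid cells, Fosb, Jun and Jund were lower, and Fos and Egr1 did not pass the test. The Fosl2 difference was 3.43 ± 0.55 and 3.60 ± 0.15 on its probes (log2 ± SE, n = 3 and 3), or 10.8-fold and 12.2-fold, with limma adjusted p = 2.14e-04 and 1.86e-08. The Junb difference was 2.57 ± 0.18 and 2.73 ± 0.18, 5.96-fold and 6.65-fold, with limma adjusted p = 3.68e-07 and 3.04e-07. In both genes the 2 probes moved by like amounts in this fit. Under other processing settings the Fosl2 difference was as low as 1.95 on the first probe and 2.99 on the second.

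Of the genes that were lower, Fosb fell by 2.48 on the log2 scale (SE 0.53, limma adjusted p = 0.00148), Jun fell by 2.12 (SE 0.24, limma adjusted p = 1.52e-05) and Jund fell by 0.93 (SE 0.26, limma adjusted p = 0.00710). Wild-type myeloid and progenitor arrays did not overlap for any of these 3 genes. Fos differed by 0.59 ± 0.41 (limma adjusted p = 0.212) and Egr1 by 0.18 ± 0.36 (limma adjusted p = 0.667), and both overlapped between the cell types. Of all probes 76.8% passed in this contrast, 38.1% higher and 38.7% lower, so 7 of 9 member probes passing is a share near that of the array. The cell types were on different slides, so slide and cell type cannot be told apart here either. Xist levels differed as well, with 4.41, 4.86 and 5.07 on wild-type progenitor arrays against -0.19, 4.25 and 0.10 on wild-type myeloid arrays. The part of sex makeup in this contrast was not tested. In bulk samples fewer cells of a type and less RNA per cell cannot be told apart.

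**Figure D3:**
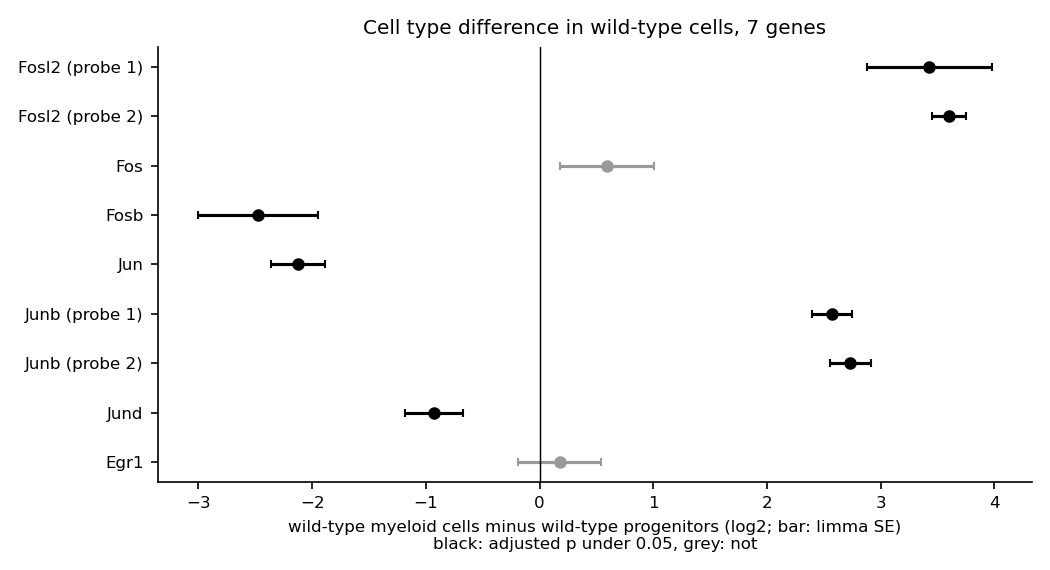
Wild-type myeloid cells minus wild-type progenitors (log2, horizontal axis, bars are limma standard errors, 3 against 3 arrays) for the 9 probes of 7 genes; black points have an adjusted p under 0.05 and grey points do not. Fosl2 (3.43 and 3.60) and Junb (2.57 and 2.73) lie to the right, Fosb (-2.48), Jun (-2.12) and Jund (-0.93) to the left, and Fos and Egr1 are grey.

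The rule took Maff, Fosl1 and Atf3 from values that include this contrast, so they have no test. Wild-type myeloid cells minus wild-type progenitors gave -3.41 for Maff, 0.14 for Fosl1 and 0.45 for Atf3. The sign of the small Fosl1 difference turned with quantile normalization (-0.20) and in the deposited value table (-0.18). In Rheb1-/- cells, myeloid cells minus progenitors gave 0.25 for Maff, 3.51 for Fosl1 and 3.20 for Atf3. Among the members that the test covered, the Rheb1-/- values were 3.45 and 3.60 for Fosl2, 2.65 and 2.67 for Junb, -0.68 for Fosb, -0.05 for Jun, 0.26 for Jund, 1.81 for Fos and 0.65 for Egr1. Each of these contrasts shares its arrays with the genotype contrasts above. On slide 4 alone, which held the Rheb1-/- myeloid arrays and Rheb1-/- progenitor array 3, the differences were -0.27 for Maff, 2.73 for Fosl1 and 3.52 for Atf3.

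The genes whose 6 group means were most like those of a leading member were sought among 14262 genes by the root mean square difference after centring each gene. For Maff they were Bcl2l14 (0.583), Xist (0.606), AI661453 (0.618), Aig1 (0.639) and Coq8a (0.660), against a median over genes of 1.66. Xist in that list is the transcript whose level separated the wild-type myeloid arrays by sex makeup above. The nearest to Fosl1 were Tgm1 (0.512), Csrnp1 (0.535), Nfkbiz (0.638), Scx (0.695) and Saa3 (0.698), with a median of 1.34. Atf3 was nearest to Gm6377 (0.407), Egr2 (0.501), Klf2 (0.573), Fos (0.579) and Fam187b (0.581), with a median of 1.39. Csrnp1, Egr2, Klf2 and Nfkbiz are themselves known as rapidly induced genes, and the likeness rests on 6 group means only.

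Other genes of the pathway were read from 4 lists without the members: other bZIP factors, other immediate early genes, the MAPK and SRF signalling that induces such genes, and known AP-1 and Maf targets. Of 182 listed genes 165 were tested. In myeloid cells 21 of the 165 were higher and 21 lower in Rheb1-/- (limma, adjusted p under 0.05), where 15.4% and 16.3% of all probes passed in those directions (31.7% together), and the median difference of the lists was 0.03 against -0.07 over all probes. With wild-type myeloid array 2 alone as the wild type, 11 passed as higher and 6 as lower. That fit has 1 array in the wild-type arm, which is assumed to vary like the other groups, so a lost call there does not show a smaller difference. The difference between this genotype difference and that in progenitors passed for 9.35% of all probes (limma, adjusted p under 0.05).

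Of the 39 other immediate early genes 7 were higher in Rheb1-/- myeloid cells, none was lower, and 32 did not pass, with a median difference of 0.17. The share of higher genes is near the 15.4% of all probes, where 16.3% were lower. With 1 array left out 6 to 9 of these genes were higher and 0 to 1 lower, and under other settings up to 2 were lower. Myc, the growth-promoting transcription factor, rose by 1.95 ± 0.17 (log2 ± SE, limma adjusted p = 2.22e-04), the nuclear receptor Nr4a2 rose by 1.89 ± 0.23 (limma adjusted p = 5.08e-04) and the nuclear protein Csrnp1 rose by 1.56 ± 0.12 (limma adjusted p = 1.26e-04). The other 4 were Nr4a1, Nfkbiz, Ppp1r15a and Klf10, with differences of 0.35 to 1.36.

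In the list of 40 other bZIP factors 4 were higher and 6 lower, with a median of 0.04. The stress-response factor Atf4 rose by 0.63 and the repressor Nfil3 by 0.55. Cebpz, which rose by 0.46, is in the list for its symbol but encodes a CCAAT-binding protein without a leucine zipper, so 3 of the 4 were bZIP genes. Bach2, a partner of small Maf proteins, fell by 1.47 (SE 0.23, limma adjusted p = 0.00162), Maf fell by 0.63 and Nfe2, another partner of small Maf proteins, fell by 0.41. Against wild-type array 2 alone the differences of Atf4, Nfil3 and Nfe2 were 0.61, 0.59 and -0.39, near those above, with limma adjusted p = 0.0647, 0.117 and 0.112.

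Of 56 MAPK and SRF genes 5 were higher and 11 lower, with a median of -0.10. The feedback inhibitors Spry2 and Spred1 rose by 1.63 ± 0.11 and 0.55 ± 0.12, and the MAP kinase phosphatase Dusp2 rose by 1.05 ± 0.22. Dusp7, which acts on ERK, fell by 0.75, the kinase Mapk7 by 0.52 and its upstream kinase Map3k3 by 0.62. Of 30 AP-1 and Maf targets 5 were higher and 4 lower, with a median of -0.02. The growth factor gene Vegfa (0.80), Spp1, encoding osteopontin (0.88), and Gclc, of glutathione synthesis (0.38), were higher, while Nqo1 (-0.84), Mmp9 (-0.97) and the integrin gene Itgax (-2.0) were lower. Mmp9 is also in the list of neutrophil markers and Itgax in that of dendritic cell markers. Against wild-type array 2 alone Dusp2 (1.09), Spred1 (0.60), Map3k3 (-0.59), Gclc (0.33), Mmp9 (-0.75) and Itgax (-1.92) kept their direction, with limma adjusted p = 0.0620 to 0.119.

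**Figure D4:**
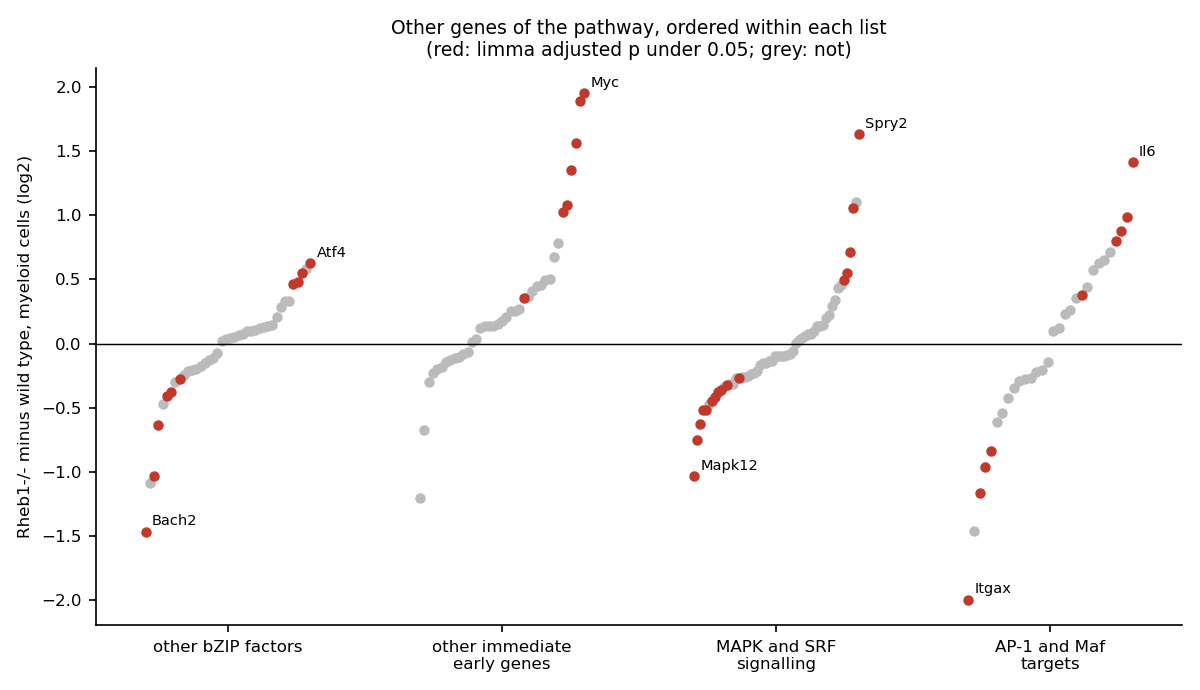
Rheb1-/- minus wild type in myeloid cells (log2, vertical axis) for the 165 tested genes of 4 pathway lists, ordered by value within each list; each point is a gene, red has a limma adjusted p under 0.05 and grey does not. The lists run in both directions, from Itgax (-2.0) to Myc (1.95). Among the 39 other immediate early genes the 7 red points are all above 0, where 15.4% of all probes passed as higher.

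Other gene groups were counted in the same genotype contrast of myeloid cells, in which 15.4% of all probes passed as higher and 16.3% as lower. Of 15 heat shock genes 7 were higher and none lower in Rheb1-/- (median 0.50), the mean level of the list being 2.04 to 2.29 in the wild type and 2.50 to 2.86 in Rheb1-/-. Hspa1a (1.78, limma adjusted p = 0.0807) and Hspa1b (1.66, limma adjusted p = 0.108) had the largest differences of that list and did not pass. Of 9 progenitor markers 8 were higher in Rheb1-/- myeloid cells, the mean level being 4.94 to 5.16 against 3.98 to 4.27. Erythroid markers were lower for 7 of 9 (mean -1.63 to -0.10 against 0.65 to 1.32) and monocyte and macrophage markers for 7 of 13, with 2 higher (mean 1.56 to 2.10 against 2.16 to 2.33). Of 13 neutrophil markers 2 were lower, a share near that of the array, with means of 7.22 to 7.39 against 7.61 to 7.74. Among markers of other blood cells, 5 of 7 B cell markers (median -1.55), 6 of 9 T and NK cell markers (-0.93) and 6 of 8 megakaryocyte and platelet markers (-1.08) were lower. So were 4 of 9 eosinophil, basophil and mast cell markers (-1.41). For dendritic cells (2 of 8, median -0.50) and for stroma and endothelium (2 of 5, median -0.30) the count rests on 2 markers each. Of 9 stem cell markers 1 was higher and 1 lower. The part of these groups in the members' levels was not tested.

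In progenitors none of the 165 pathway genes passed in either direction (limma), where 0.0958% of all probes did (0.07% higher and 0.0258% lower). An unadjusted p under 0.05 (limma) was found for 26 of the 165 and for 3060 of all 27144 probes. The smallest p-values belonged to Creb3l3 (0.41, limma adjusted p = 0.114), Pim1 (0.99, limma adjusted p = 0.0838), Rps6ka3 (0.54, limma adjusted p = 0.121) and Nqo1 (-0.68, limma adjusted p = 0.122) in their lists. Pim1, a survival kinase gene, passed with an intensity trend and robust prior (limma adjusted p = 0.0437).

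Between wild-type myeloid cells and wild-type progenitors 92 of the 165 pathway genes were higher and 35 lower (limma, adjusted p under 0.05), with a median of 0.70 against 0.02 over all probes. Slide and Xist levels also differed in this contrast, as given above. By list, 21 bZIP factors were higher and 8 lower, 27 and 5 immediate early genes, 27 and 16 MAPK and SRF genes, and 17 and 6 targets. In the bZIP list Mafg, encoding another small Maf protein, rose by 1.68 and Bach1, encoding a partner of small Maf proteins, by 1.82. Cebpa, encoding a C/EBP factor of myeloid differentiation, fell by 1.12, Tef by 1.41 and Cebpz by 0.91. The immediate early genes Gadd45g (3.78), Ier5 (2.39) and Sgk1 (2.35) were higher, and Myc (-3.62), Rgs1 (-2.99) and Ppp1r15a (-1.17) were lower.

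Mapk13 (4.55), Map3k8 (2.86) and Map3k3 (2.19) were higher in wild-type myeloid cells than in progenitors, and the feedback inhibitors Spry1 (-3.35), Spry2 (-1.78) and Spred1 (-1.21) were lower. Mmp9 (6.88) and Mmp8 (5.96), proteases of neutrophil granules, and Osgin1 (4.34) were the leading targets, whereas Gclc (-1.49), Txnrd1 (-0.54) and Hbegf (-2.71, above background on 1 of the 3 wild-type myeloid arrays) were lower. Each of these passed the limma test at an adjusted p under 0.05. Mmp8 and Mmp9 are also in the neutrophil marker list, so the target list and the marker lists overlap. Like Maff and Jun, Myc and Spry2 were lower in wild-type myeloid cells than in wild-type progenitors and higher in Rheb1-/- than in wild-type myeloid cells. This was not particular to them, as Nr4a2, Ppp1r15a, Spred1, Gclc, Atf4 and Cebpz did the same. Both contrasts share the wild-type myeloid arrays, so a low level there enters both. Rheb1-/- myeloid cells minus Rheb1-/- progenitors gave -2.09 for Myc, against 0.25 for Maff and -0.05 for Jun. With 1 array left out the values of Maff (-0.23 to 0.51) and Jun (-0.25 to 0.22) took either sign.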

How the data were processed

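Cy3-labelled RNA of 14 samples was measured on Agilent arrays of 1 colour, as the labels' protocols say. Spot intensity was taken as processed signal, background-subtracted by Agilent Feature Extraction, per the file headers; these name version 10.7.3.1 and the submitters' processing notes 9.1. The mean and local background intensities in the deposited files served an alternative. The deposited table of log2 values lists 41265 probes, and its sorted columns differed by at most 0.00234 (medians 5.92), so it was quantile normalized; how background was handled there is not given in the sources used.

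Controls (1639 of 45018 spots) and 79 to 195 outlier spots per array were left out, and spots of a probe averaged, giving 41174 probes. A limma model (version 3.58.1, R 4.3.3) gave each of the 4 replicated groups (12 arrays) a mean over 27144 probes, with 8 residual degrees of freedom, and p-values were Benjamini-Hochberg adjusted over all of them, two-sided, at 0.05. The labels give the arrays replicate numbers, but same-numbered arrays did not deviate together (correlations -0.16 to 0.11), so no pairing was used. List genes were represented by their brightest passing probe. Named are all members, Rheb, up to 3 risers and 3 fallers of smallest p per pathway list and contrast (or the smallest p as a value), the 2 heat shock genes of largest difference and the 5 genes most like each leading member. Gene names came from the files and a RefSeq table. Coordinates are those of the files (mm9), and promoters are from RefSeq GRCm38.p6. The fit was tested on simulated data. Alternatives were another background correction, normalization, filter, variance prior, block or set of arrays, and the deposited table. The members and lists were chosen with earlier results of these data known. Wild-type myeloid array 2 alone was an alternative chosen after seeing the data. A gene that the naming rule takes is not reported here.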

Additional observations from a re-analysis of the deposited data

Results flagged for a closer look

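The genotype difference of some named genes of the pathway lists differed between myeloid cells and progenitors by the interaction contrast of the fit (limma, adjusted over all probes). The difference in myeloid cells minus that in progenitors was 1.98 for Nr4a2 (limma adjusted p = 0.0106), 1.52 for Myc (limma adjusted p = 0.0102), 1.5 for Csrnp1 (limma adjusted p = 0.00397) and 1.37 for Spry2 (limma adjusted p = 0.00416). It was 1.07 for Spp1 (limma adjusted p = 0.0264) and 0.99 for Atf4 (limma adjusted p = 0.0127). For Ppp1r15a, which was not followed over the settings below, the value was 1.32 (limma adjusted p = 0.0178). Negative values were found for Bach2 (-1.47, limma adjusted p = 0.0262), Maf (-0.76, limma adjusted p = 0.0128) and Creb3l3 (-0.53, limma adjusted p = 0.0274). Of all probes 9.35% passed this contrast. Over 22 settings Csrnp1 and Spry2 passed each time, and Atf4, Maf, Myc and Nr4a2 missed the threshold with wild-type myeloid array 2 alone as the wild type (limma adjusted p = 0.0649 to 0.0752), where their values, 0.97, -0.74, 1.45 and 1.99, were near the main ones and the wild-type arm had 1 array. Bach2 missed it under 8 settings, Spp1 under 7 and Creb3l3 under 11, single arrays left out among them. In myeloid cells the genotypes lay on separate slides and differed in Xist, whose part was not tested.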

How the results depend on the processing

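Over 25 settings no result changed direction while past its threshold, and 895 of 912 untested member differences, 1494 of 1536 tested differences and 724 of 756 counts kept their side or size. Untested member differences took the opposite sign 12 times of 273 in myeloid cells, with Fosl2, Junb and Egr1, all near 0, and 7 times of 297 in progenitors, with Maff, Fosl1, Fosl2 and Junb. Between the cell types they did so 2 times of 69 in the wild type, with Fosl1, and 3 times of 273 in Rheb1-/-, with Maff and Jun. The Maff difference in myeloid cells was 2.04 with normexp correction and 3.09 to 3.47 with 1 array left out. It was 3.66 against wild-type array 2 alone, the lowest wild-type array for Maff and a choice made after seeing the data. Fosl1 gave 1.73 with normexp, 3.29 with quantile normalization and 3.28 in the deposited table, and 3.01 to 3.18 with 1 array left out, and Atf3 1.88 to 2.08. Both Maff and Fosl1 were dim in wild-type myeloid cells. With 1 probe per gene 2 member probes were higher between cell types, by construction, and with 1 array left out 4 were higher and 3 lower each time.

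The pathway genes higher and lower in Rheb1-/- myeloid cells numbered 33 and 35 with slide as a random block (consensus correlation -0.14), 11 and 6 against wild-type array 2 alone (an arm of 1 array, assumed to vary like the other groups), and 16 to 23 and 17 to 23 with 1 array left out. In progenitors 1 was higher with the intensity trend. Leaving out 1 array gave 0 to 1 higher and 0 to 2 lower: 1 lower without wild-type array 2, and 1 higher and 2 lower without Rheb1-/- array 1. Between cell types the ranges were 87 to 94 and 31 to 37. Nfil3 missed the threshold without Rheb1-/- myeloid array 2 (limma adjusted p = 0.0503), and Pim1 passed without Rheb1-/- progenitor array 1 (limma adjusted p = 0.0475).

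Over all probes, quantile normalization moved the myeloid median from -0.07 to 0.03 and the higher calls from 4170 of 8592 to 5336 of 8900, and the calls of the difference between the genotype differences from 1234 of 2537 to 1890 of 2949. Against wild-type myeloid array 2 alone 3203 probes passed in myeloid cells and 351 in that difference, which had 1015 without a filter and 1122 to 2850 with 1 array left out. The progenitor calls, 26 in all, were 0 with only the arrays of the groups compared, 4 with slide as a fixed block, 41 with the trend, 11 without a filter, 13 with 1 probe per gene, 0 on slide 3 alone, 7 with wild-type myeloid array 2 alone, and, leaving out wild-type progenitor arrays 1, 2 and 3 in turn, 8, 59 and 71. Leaving out Rheb1-/- progenitor arrays 1, 2 and 3 gave 95, 13 and 6, and leaving out wild-type myeloid arrays 2 and 3 or Rheb1-/- myeloid array 3 gave 10, 16 and 13. The replicate block gave 7965 calls in myeloid cells and 24 in progenitors and moved no count of calls by over 1.5 times in those contrasts; of the named genes Creb3l3 alone lost a call with it, that of the difference between the genotype differences. Slide as a fixed block and slide 3 alone gave no value for the other contrasts.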
